A study of Rattus norvegicus with 12 samples.

Results

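A set of 10 genes of the cellular defence against oxidative stress were followed in rat brain: Hmox1, Nqo1, Gclc, Gclm, Slc7a11, Txnrd1, Srxn1, Gpx1, Cat and Sod2. They were taken by gene symbol from a count table of 17337 gene rows, in which all 10 were found, and all 10 were among the 12850 genes with enough reads to be tested. RNA sequencing had been done on brain tissue of 12 male Sprague-Dawley rats at postnatal day 60, with 3 libraries in each of 4 groups. The AAV-VEGFC rats had a bile duct ligation (BDL) and received an adeno-associated virus (AAV) that carries the lymphatic growth factor gene VEGFC. The AAV-GFP rats had the ligation and an AAV coding for green fluorescent protein. The BDL rats had the ligation and, as far as the labels say, no vector, and the sham rats had neither. In all 3 ligated groups the bile duct had been closed for 4 weeks, an operation that scars the liver and is used to study how liver failure affects the brain. Both vectors were injected in 20 µl into the cerebrospinal fluid at the cisterna magna. The sources used here do not give the promoter of the vectors, the time of injection or a mock injection of the other rats. Nothing in the labels ties a library to a named animal beyond the stated 3 rats per group, so p-values measure the spread between these libraries.

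Nrf2, encoded by Nfe2l2, is the transcription factor that switches on much of this defence. In resting cells the adaptor Keap1 binds it and sends it to degradation. Oxidants and electrophiles modify Keap1, Nrf2 accumulates, and together with a small Maf protein it binds antioxidant response elements near its targets, while Bach1 competes for the same sites. The control therefore acts largely on the protein, and the level of Nfe2l2 RNA is not a measure of Nrf2 activity. In the brain these pathways are best known from astrocytes, which use them to supply neurons with glutathione precursors. Hmox1, Nqo1, Gclc, Gclm, Slc7a11, Txnrd1 and Srxn1 are textbook Nrf2 targets, whereas Gpx1, Cat and Sod2 remove peroxide and superoxide and answer to several other regulators as well.

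Bases before the transcription start are shown for 5 genes, so that letter matches to binding motifs can be seen beside the values. They come from the RefSeq promoter table of the GRCr8 build, which holds 250 bases before and 50 bases after each start and matched 9 of the 10 genes, all but Hmox1, with 2 starts for Txnrd1. The core of the antioxidant response element was searched on both strands as TGACNNNGC. It was found in 3 of the 10 windows, those of Gclm, Sod2 and 1 start of Txnrd1, and in 12.1% of all 33469 windows of the table. A second motif, TGANTCAGC, the form bound by Nrf2-type factors with a small Maf, was searched after the sequences had been seen. It coincides with the first motif where its N is C. It was found only at the start of Srxn1 among the 10 windows, and in 1.11% of all windows. Each sequence below is given 5′ to 3′ on the gene's strand, with the match to either motif in capitals.
Gclm, chr2:213031947-213031987, plus strand: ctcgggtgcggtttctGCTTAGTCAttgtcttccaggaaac
Srxn1, chr3:161064775-161064815, plus strand, whose last 4 bases lie from the start on: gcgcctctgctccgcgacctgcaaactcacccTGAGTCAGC
Txnrd1, chr7:22755958-22755998, minus strand: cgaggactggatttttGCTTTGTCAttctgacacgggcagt
Sod2, chr1:50050179-50050219, minus strand: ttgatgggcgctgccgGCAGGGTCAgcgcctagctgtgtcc
In Gclm, Txnrd1 and Sod2 the match lies on the strand opposite to the gene. The window of Cat, the one gene of the 10 that passed the test in any comparison, held neither motif. It did hold CCAAT boxes, bound by the factor NF-Y. This motif was chosen after the Cat window had been seen. At least 1 match on either strand was found in 3 of the 10 windows, those of Cat, Nqo1 and a start of Txnrd1, and in 37.5% of all windows. Cat held 5 matches, and 0.218% of all windows held that many or more, a limit set by the count in Cat itself. The 250 bases before the Cat start follow, with the 4 of these CCAAT or ATTGG runs that lie before the start in capitals.
Cat, chr3:110329527-110329776, minus strand: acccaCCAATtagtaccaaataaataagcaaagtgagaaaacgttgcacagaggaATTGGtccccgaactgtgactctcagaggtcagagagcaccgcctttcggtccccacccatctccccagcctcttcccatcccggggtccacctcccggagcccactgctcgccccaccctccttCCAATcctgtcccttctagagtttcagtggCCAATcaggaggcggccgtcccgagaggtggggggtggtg
A match of letters is a description of the window and does not show that a factor binds there, and these short windows leave out distal elements.

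Levels are given as CPM, read counts scaled to the size of the library, which can be compared between libraries but not between genes, since no transcript lengths were used. Library totals ran from 40296297 to 51669067 counts, and the lowest count of any of the 10 genes in any library was 220, for Hmox1. Differences are log2 fold changes ± SE from one edgeR quasi-likelihood fit of all 12 libraries, and a gene passed at an adjusted p (Benjamini-Hochberg over 12850 genes) under 0.05. The comparisons share groups with each other, so their results are not independent. The series describes the tissue as middle brain. Markers of cortex and hippocampus neurons (8 of 8 found) summed to 2845 to 4207 CPM per library, while those of midbrain monoamine neurons (7 of 8 found) summed to 6.10 to 11.1 CPM, and the dopamine transporter gene Slc6a3 had 0 reads in 10 of the 12 libraries. AAV-VEGFC 1 stood apart from the other libraries of its group (chi-square per degree of freedom at least 220), and AAV-GFP 1 less so (at least 72.7). Sham 2 did not stand apart by this measure (at most 15.6, against up to 17.5 between BDL libraries). Its choroid plexus markers (8 of 8 found) summed to 579 CPM, against 174 to 268 CPM in the other libraries. Values without AAV-VEGFC 1, or without AAV-VEGFC 1, AAV-GFP 1 and sham 2 together, are given for many, not all, of the calls and differences that they change. In bulk tissue fewer cells of a type and less RNA per cell cannot be told apart.

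Ligation alone moved none of the 10 genes past the threshold. In BDL against sham rats 0 of 10 passed with edgeR, with DESeq2 and with weighted limma voom (voom with sample quality weights, which also counts outlying libraries less), against 0.109% of all tested genes called with edgeR, 0.0934% higher and 0.0156% lower. An unadjusted p under 0.05 was found for 0 of 10, against 5.9% of all genes. The libraries of the groups did not overlap for 3 of 10, all lower in BDL, against 12.4% of all genes lower, 12.6% higher and 25% in either direction. The 10 differences had a median of 0.00 and ran from -0.22 for Slc7a11 to 0.25 for Gpx1, beside a median of 0.01 over all tested genes.

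With the AAV-GFP vector 1 of 10, Cat, rose against BDL and 0 fell, while 0.988% of all genes were called higher, 5.2% lower and 6.19% in either direction. An unadjusted p under 0.05 was found for 1 of 10, against 20.7% of all genes. The groups did not overlap for 3 of 10 higher (Nqo1, Gpx1 and Cat) and 1 lower (Gclc), against 18.2%, 20% and, in either direction, 38.1% of all genes.

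AAV-VEGFC rats were not separated from AAV-GFP rats by the test in any of the 10. With edgeR, DESeq2 and weighted limma voom 0 passed, against 0% of all genes called higher and 0.00778% lower with edgeR, 0.00778% in either direction, and 0 of 10 had an unadjusted p under 0.05, against 4.37%. Only Cat did not overlap, lower in AAV-VEGFC, against 2.77% of all genes lower, 3.29% higher and 6.06% in either direction. In AAV-VEGFC against BDL 0 of 10 passed with edgeR, while 2.91% of all genes were called higher, 7.02% lower and 9.93% in either direction. There 4 of 10 had an unadjusted p under 0.05, against 29.2% of all genes. DESeq2 called 3 of 10 and 2362 of all genes, and weighted limma voom called 3 of 10 and 2488 of all genes. The groups did not overlap for 2 of 10, Srxn1 and Cat, both higher, against 14.6% of all genes higher, 18.3% lower and 32.9% in either direction.

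Over all 3 ligated groups together against sham 1 of 10, Cat, rose and 0 fell, while 3.02% of all genes were called higher, 7% lower and 10% in either direction. An unadjusted p under 0.05 was found for 3 of 10, against 27.6% of all genes. The ligated and sham libraries overlapped for all 10 genes, whereas 5.05% of all genes were separate and higher, 4.62% separate and lower and 9.67% either. In that comparison 6 of the 9 ligated libraries also carry a vector and its injection.

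**Figure D1:**
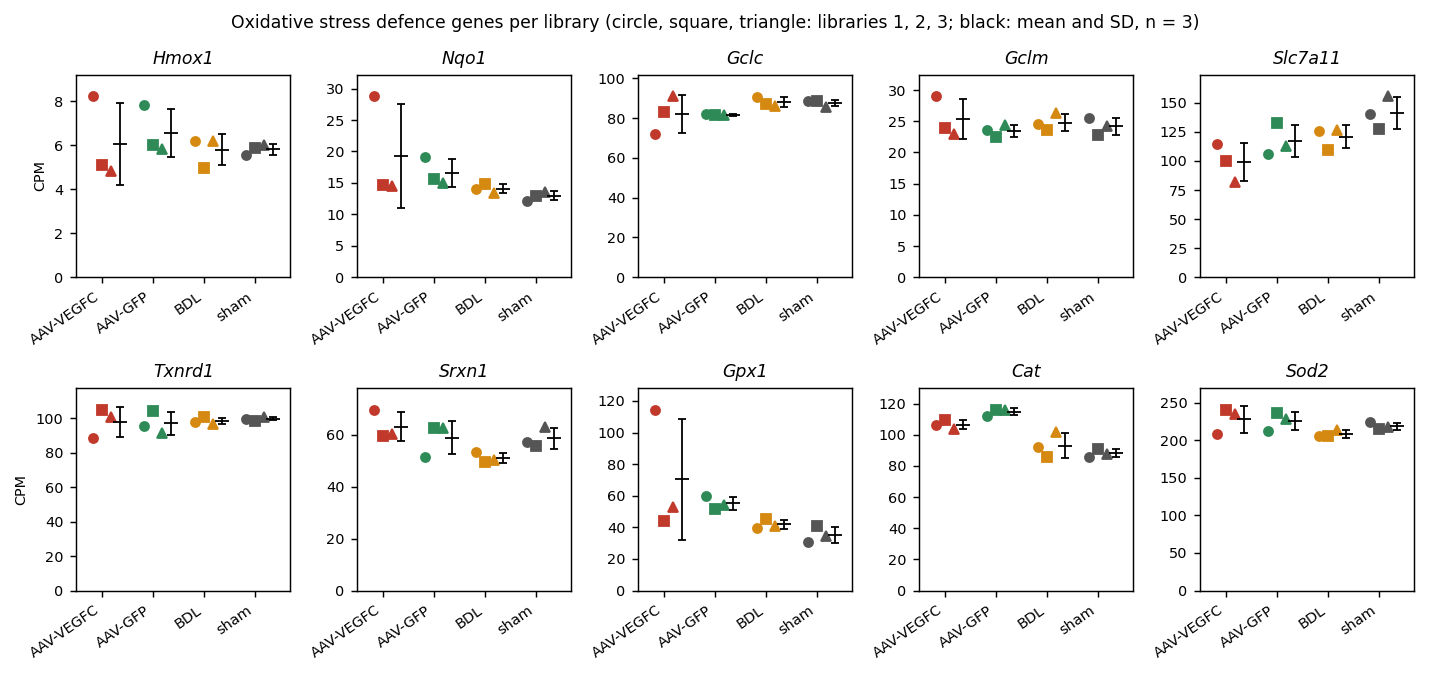
CPM (y axis, from 0) of each gene in each of the 12 libraries, by group along the x axis, with the mean and SD of 3 libraries in black. AAV-VEGFC 1 (red circle) lies far above the other libraries for Gpx1 (114.6 CPM) and Nqo1 (28.8 CPM), while the 6 vector libraries lie above the 6 others for Cat.

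Hmox1, the inducible haem oxygenase that splits haem into iron, carbon monoxide and biliverdin, stayed within 4.83 to 8.22 CPM over the 12 libraries. It was 8.22, 5.11 and 4.83 CPM in the AAV-VEGFC libraries and 7.82, 6.02 and 5.84 CPM in the AAV-GFP libraries. It was 6.20, 4.97 and 6.21 CPM in the BDL libraries, against 5.53, 5.89 and 6.02 CPM in the sham libraries. The groups overlapped throughout, and a single library in each vector group was high. The difference between BDL and sham rats was -0.01 ± 0.21 (adjusted p = 0.9999), with a 95% interval from 0.729-fold to 1.36-fold. AAV-VEGFC against BDL gave 0.06 ± 0.21 (adjusted p = 0.875), and -0.22 (adjusted p = 0.368) without AAV-VEGFC 1. AAV-VEGFC against AAV-GFP gave -0.12 ± 0.21 (adjusted p = 0.969), and -0.40 (adjusted p = 0.219) without that library. Red-cell genes, mainly globins, the haem-carrying proteins of blood, summed to 433 to 1322 CPM in the ligated libraries and 117 to 158 CPM in the sham libraries (8 of 9 listed genes found). Microglia markers (10 of 10 found) summed to 782 CPM in AAV-VEGFC 1 and 777 CPM in AAV-GFP 1, the libraries with the most Hmox1, and to 381 to 514 CPM in the other 10. The part of either in the Hmox1 values was not tested.

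Nqo1 reduces quinones without releasing radicals and is a classical read-out of Nrf2 activity. It was 28.8, 14.7 and 14.4 CPM in AAV-VEGFC libraries, 19.05, 15.6 and 14.9 CPM in AAV-GFP libraries, 14.1, 14.8 and 13.5 CPM in BDL libraries, and 12.2, 12.98 and 13.6 CPM in sham libraries. The group means ran in the order AAV-VEGFC, AAV-GFP, BDL and sham, and 1 library made most of the first: without AAV-VEGFC 1 the AAV-VEGFC mean was 14.6 CPM instead of 19.3 ± 8.22 CPM (SD, n = 3). All AAV-GFP libraries lay above all BDL libraries, as for 18.2% of all tested genes, but the difference did not pass (0.23 ± 0.23, adjusted p = 0.61). AAV-VEGFC against BDL gave 0.45 ± 0.23 (adjusted p = 0.209), and 0.05 (adjusted p = 0.805) without AAV-VEGFC 1. AAV-VEGFC against AAV-GFP gave 0.22 ± 0.23 (adjusted p = 0.948), and turned to -0.18 without that library. Nqo1 passed under none of the alternatives in any comparison.

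Glutathione is made in steps that begin with cystine uptake through Slc7a11, the xCT antiporter, and go on through glutamate-cysteine ligase, whose catalytic subunit is Gclc and whose modifier subunit is Gclm. The ligase genes were among the steadiest of the 10. Gclc was 71.9, 83.1 and 91.0 CPM in AAV-VEGFC libraries, 82.0, 81.3 and 81.5 CPM in AAV-GFP libraries, 90.8, 87.2 and 85.9 CPM in BDL libraries, and 88.6, 88.4 and 85.8 CPM in sham libraries. Gclm lay between 22.4 and 29.0 CPM in all 12 libraries, with means of 25.3 ± 3.22 CPM with AAV-VEGFC, 23.5 ± 1.01 CPM with AAV-GFP, 24.8 ± 1.38 CPM in BDL and 24.2 ± 1.32 CPM in sham (SD, n = 3 each). Group means of either gene differed by at most 1.08-fold. The 95% interval for BDL against sham ran from 0.891-fold to 1.13-fold for Gclc and from 0.887-fold to 1.19-fold for Gclm. For AAV-VEGFC against AAV-GFP it ran from 0.892-fold to 1.13-fold for Gclc and from 0.933-fold to 1.25-fold for Gclm.

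Slc7a11 had its highest group mean in sham rats and its lowest in AAV-VEGFC rats. It was 114.4, 100.3 and 81.9 CPM in AAV-VEGFC libraries and 106.4, 132.4 and 112.6 CPM in AAV-GFP libraries. It was 126.1, 109.5 and 126.9 CPM in BDL libraries, against 140.0, 127.7 and 155.7 CPM in sham libraries. All 3 BDL libraries lay below all 3 sham libraries, as for 12.4% of all tested genes, while AAV-GFP 2 reached into the sham range. BDL against sham gave -0.22 ± 0.13 (adjusted p = 0.947). All ligated rats against sham gave -0.34 ± 0.10, 0.793-fold with a 95% interval from 0.677-fold to 0.928-fold, and did not pass (adjusted p = 0.0649). That difference passed with DESeq2 (adjusted p = 0.0255), with weighted limma voom (adjusted p = 0.00267) and without AAV-VEGFC 1 (-0.37, adjusted p = 0.0127), and over all alternatives it stayed between -0.42 and -0.26. AAV-VEGFC against BDL gave -0.29 ± 0.13 (adjusted p = 0.165), and -0.41 (adjusted p = 0.0458) without AAV-VEGFC 1.

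The thioredoxin branch was represented by Txnrd1, the cytosolic thioredoxin reductase, a selenoprotein, and by Srxn1, the sulfiredoxin that repairs over-oxidised peroxiredoxins. Txnrd1 varied least between groups. It was 88.3, 105.0 and 100.4 CPM in AAV-VEGFC libraries, 95.4, 104.0 and 91.4 CPM in AAV-GFP libraries, 97.6, 100.5 and 96.8 CPM in BDL libraries, and 99.7, 98.6 and 100.5 CPM in sham libraries. Its group means lay within 1.03-fold of each other, and the 95% interval for BDL against sham ran from 0.880-fold to 1.11-fold.

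Srxn1 had its lowest group mean in BDL rats. It was 69.6, 59.3 and 60.3 CPM in AAV-VEGFC libraries and 51.5, 62.4 and 62.6 CPM in AAV-GFP libraries. It was 53.3, 49.5 and 50.2 CPM in BDL libraries, against 57.01, 55.6 and 62.95 CPM in sham libraries. All BDL libraries lay below all sham libraries and below all AAV-VEGFC libraries, while AAV-GFP 1 fell within the BDL range. By edgeR neither the BDL difference from sham (-0.20 ± 0.09, adjusted p = 0.885) nor that of AAV-VEGFC from BDL (0.31 ± 0.09, adjusted p = 0.0624) passed. AAV-VEGFC against BDL passed with DESeq2 (adjusted p = 0.0188), with weighted limma voom (adjusted p = 0.0454), without AAV-GFP 1 (adjusted p = 0.0345) and without AAV-VEGFC 2 (adjusted p = 0.0479). Without sham 2, AAV-GFP 1 and AAV-VEGFC 1 together, Srxn1 rose in AAV-GFP against BDL (0.29, adjusted p = 0.00583) and in AAV-VEGFC against BDL (0.23, adjusted p = 0.0182). That fit leaves out the lowest AAV-GFP library and the highest AAV-VEGFC library.

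**Figure D2:**
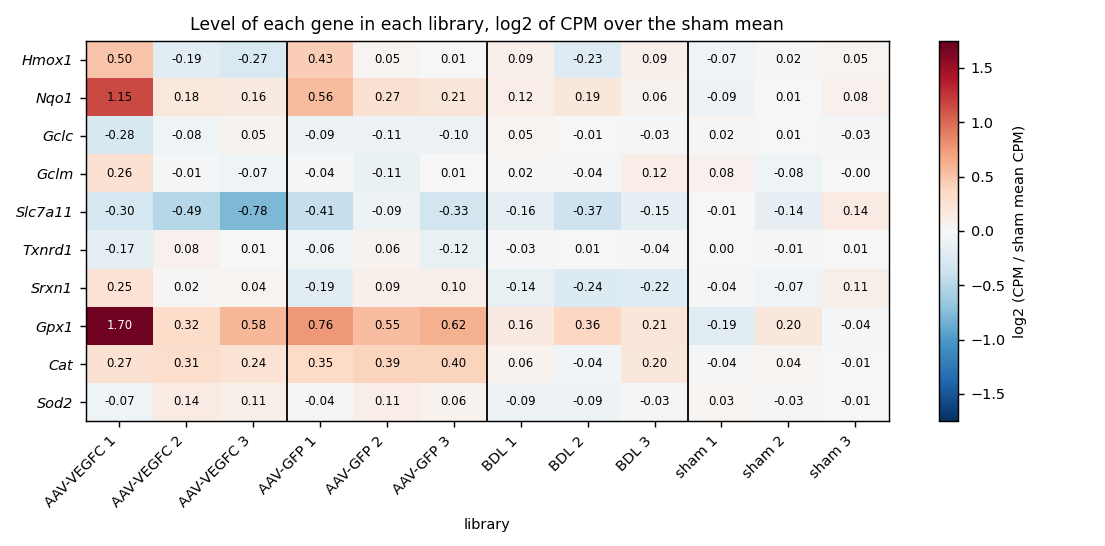
Log2 of each library's CPM over the sham mean, with genes down the page and the 12 libraries along it, AAV-VEGFC at the left and sham at the right. Cat is above the sham mean in all 6 vector libraries, Slc7a11 is below it in all 9 ligated libraries, and the strongest value is that of Gpx1 in AAV-VEGFC 1 (1.70).

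Gpx1 and Cat both break down hydrogen peroxide, Gpx1 as a selenoprotein that spends glutathione and Cat as the haem enzyme of peroxisomes. Gpx1 had the widest range of the 10, 3.71-fold between its lowest and highest library. It was 114.6, 44.1 and 52.6 CPM in AAV-VEGFC libraries and 59.8, 51.5 and 54.2 CPM in AAV-GFP libraries. It was 39.3, 45.3 and 40.9 CPM in BDL libraries, against 30.9, 40.5 and 34.3 CPM in sham libraries. AAV-VEGFC 1 held 1.92 times the next highest library, and without it the AAV-VEGFC mean was 48.3 CPM instead of 70.4 ± 38.5 CPM. All AAV-GFP libraries lay above all BDL libraries (0.40 ± 0.28, adjusted p = 0.464), without passing in the fit of all libraries.

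Without AAV-VEGFC 1 Gpx1 rose in AAV-GFP against BDL (0.40, adjusted p = 0.0239) and in all ligated rats against sham (0.45, adjusted p = 0.00626, against 0.63 ± 0.24 and adjusted p = 0.117 with it). AAV-VEGFC against BDL was 0.75 ± 0.28 (adjusted p = 0.108) with the library and 0.21 (adjusted p = 0.261) without it. The same comparison gave 0.997 and passed without AAV-VEGFC 2 (adjusted p = 0.0275), and it passed with DESeq2 (0.76, adjusted p = 0.0393). Without AAV-VEGFC 2 all ligated rats against sham passed too (0.71, adjusted p = 0.041). AAV-VEGFC against AAV-GFP turned to -0.19 without AAV-VEGFC 1, against 0.35 ± 0.28 in the fit of all libraries, and passed in neither case.

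Cat rose in AAV-GFP rats. It was 112.3, 115.9 and 116.3 CPM in AAV-GFP libraries, against 92.0, 85.8 and 101.7 CPM in BDL libraries. Every AAV-GFP library lay above every BDL library, and the difference was 0.30 ± 0.07 (edgeR adjusted p = 0.0263), 1.23-fold with a 95% interval from 1.11-fold to 1.37-fold. In the AAV-VEGFC libraries Cat was 106.2, 109.5 and 104.1 CPM, also above every BDL library, but AAV-VEGFC against BDL did not pass (0.19 ± 0.07, adjusted p = 0.0956). AAV-VEGFC against AAV-GFP gave -0.11 ± 0.07 (adjusted p = 0.948), although the libraries of these groups did not overlap, as was so for 6.06% of all tested genes. The sham libraries held 86.0, 91.1 and 87.9 CPM, and Cat rose in all ligated rats against sham (0.24 ± 0.06, edgeR adjusted p = 0.0228), with BDL 2 below the sham range. BDL alone against sham gave 0.08 ± 0.07 (adjusted p = 0.9999).

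With 1 library left out, the AAV-GFP call of Cat held in 6 of 12 fits and that of all ligated rats in 9 of 12. The difference kept its direction in each. AAV-GFP against BDL had an adjusted p of 0.0513 to 0.122 without sham 1, sham 3, BDL 1, BDL 2, AAV-GFP 2 or AAV-GFP 3, and 0.0597 with the replicate number as a block, with log2 differences of 0.24 to 0.37 when any 1 library was left out. All ligated rats against sham had an adjusted p of 0.155, 0.0639 and 0.125 without sham 1, sham 2 and sham 3. Without sham 2, AAV-GFP 1 and AAV-VEGFC 1 together both calls held (0.31, adjusted p = 0.00854, and 0.27, adjusted p = 0.0115). Other measures parted the vector libraries from the rest as Cat did. Rn18s, an 18S ribosomal RNA gene, took 0.430% to 1.16% of reads in the 6 vector libraries and 0.137% to 0.306% in the other 6. Blood vessel endothelium markers (7 of 8 found) summed to 425 to 491 CPM in the vector libraries and 235 to 363 CPM in the others. Their part in the Cat result was not tested, and no label names a batch, so vector, injection and any batch cannot be told apart.

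Sod2, the manganese superoxide dismutase of mitochondria, was 207.7, 240.8 and 235.1 CPM in AAV-VEGFC libraries and 212.8, 236.0 and 227.9 CPM in AAV-GFP libraries. It was 205.0, 205.0 and 214.1 CPM in BDL libraries, against 223.6, 214.6 and 217.2 CPM in sham libraries. The BDL libraries lay just below the sham range, with a difference of -0.07 ± 0.07 (adjusted p = 0.9999). AAV-GFP against BDL gave 0.12 ± 0.07 (adjusted p = 0.402) and AAV-VEGFC against BDL gave 0.13 ± 0.07 (adjusted p = 0.247). In each vector group library 1 was the lowest. Without sham 2, AAV-GFP 1 and AAV-VEGFC 1 Sod2 rose in both comparisons (0.15, adjusted p = 0.0234, and 0.19, adjusted p = 0.00989). That fit leaves out the lowest library of each vector group. Without AAV-VEGFC 1 alone Sod2 rose in AAV-VEGFC against BDL (0.19, adjusted p = 0.027).

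**Figure D3:**
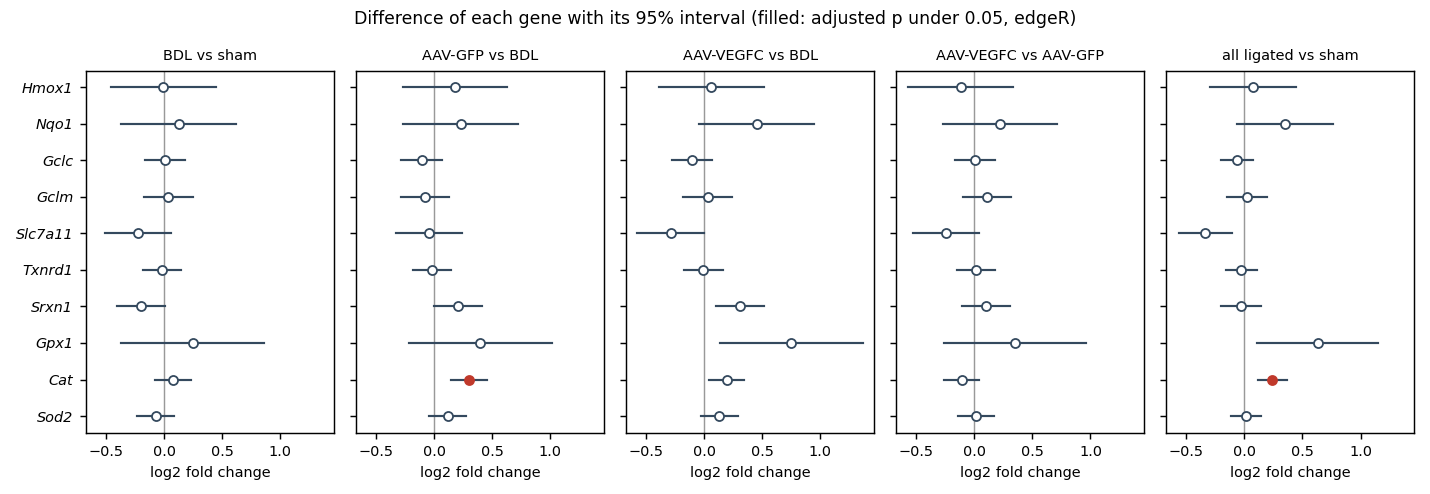
Log2 fold change (x axis) of each gene in the 5 comparisons, with its 95% interval from the edgeR fit of all 12 libraries. Filled points passed at an adjusted p under 0.05: Cat in AAV-GFP against BDL (0.30) and in all ligated rats against sham (0.24).

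The 10 genes did not move as one block. In AAV-VEGFC 1 a set of 5 of them, Hmox1, Nqo1, Gclm, Srxn1 and Gpx1, had their highest value of all 12 libraries, while Gclc and Txnrd1 had their lowest there. Among the textbook Nrf2 targets, Nqo1 was 1.98 times the mean of AAV-VEGFC 2 and 3 in that library, and Gclc 0.826 times. No other library held the highest value of more than 2 of the genes. Oligodendrocyte markers (8 of 8 found) summed to 19277 CPM in AAV-VEGFC 1, against 11549 to 15219 CPM in the other libraries, and astrocyte markers (8 of 8 found) to 8144 CPM, against 5515 to 7239 CPM. The part of these in the values of AAV-VEGFC 1 was not tested.

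Among the regulators, the RNA of Nrf2, Keap1 and Bach1 passed the edgeR test on all libraries in no comparison. Nfe2l2 was 50.8, 31.2 and 31.9 CPM in AAV-VEGFC libraries, 37.1, 36.5 and 35.7 CPM in AAV-GFP libraries, 29.1, 31.8 and 30.6 CPM in BDL libraries, and 30.1, 27.7 and 31.8 CPM in sham libraries. AAV-GFP libraries lay above BDL libraries in every case (0.26 ± 0.16, adjusted p = 0.392). That difference passed under 4 of 21 alternatives, among them without AAV-VEGFC 1 (0.26, adjusted p = 0.0127). AAV-VEGFC against BDL gave 0.31 ± 0.16 (adjusted p = 0.207), and 0.05 (adjusted p = 0.666) without AAV-VEGFC 1. Keap1 lay between 61.4 and 74.6 CPM and Bach1 between 4.64 and 7.82 CPM over all libraries. Of the small Maf partners, Mafg fell in AAV-GFP against BDL (-0.28 ± 0.07, adjusted p = 0.0392), in AAV-VEGFC against BDL (-0.34 ± 0.07, adjusted p = 0.0114) and in all ligated rats against sham (-0.30 ± 0.06, adjusted p = 0.0071). The AAV-GFP call was lost with the replicate block and without sham 1, sham 3, AAV-GFP 2, AAV-GFP 3 or any 1 BDL library (adjusted p up to 0.138), and the call of all ligated rats without sham 1 (adjusted p = 0.0566) or sham 3 (adjusted p = 0.0584). The AAV-VEGFC call of Mafg was kept under 20 of 21 alternatives (adjusted p up to 0.0952). Maff, a small Maf that many stress signals induce, was 3.25, 2.83 and 5.19 CPM in AAV-VEGFC libraries and 1.73, 1.748 and 2.67 CPM in AAV-GFP libraries, against 1.28, 0.701 and 1.59 CPM in BDL libraries. Both vector groups lay above BDL without overlap. Maff rose in AAV-VEGFC against BDL (1.66 ± 0.34, adjusted p = 0.0113), a call lost in the fit of these groups alone (adjusted p = 0.0795). AAV-GFP against BDL (0.78 ± 0.34, adjusted p = 0.213) and AAV-VEGFC against AAV-GFP (0.87 ± 0.33, adjusted p = 0.948) did not pass.

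Around these genes, 147 others of redox defence were listed by role, of which 137 were found and 128 tested. Ligation alone changed 0 of 128 with edgeR, against 0.109% of all genes, while 9 of 128 had an unadjusted p under 0.05, against 5.9%. DESeq2 called 3 of the list and 108 of all genes, and weighted limma voom called 3 and 347. AAV-GFP against BDL called 3 higher and 4 lower, 2.34% and 3.12%, against 0.988% and 5.2% of all genes. AAV-VEGFC against BDL called 9 higher and 5 lower, 7.03% and 3.91%, against 2.91% and 7.02% of all genes. AAV-VEGFC against AAV-GFP called 0, against 0.00778% of all genes, with 5 of 128 at an unadjusted p under 0.05, against 4.37% of all genes, and 0 with DESeq2 and with weighted limma voom. All ligated rats against sham called 14 higher and 3 lower, 10.9% and 2.34%, against 3.02% and 7% of all genes, and the median of the 128 differences was 0.22 beside 0.01 over all genes. The last count ran from 4 without sham 1 to 53 without AAV-VEGFC 1, where 378 and 3199 of all genes were called. The list count stayed within 1.5 times of 17 when BDL 1, AAV-GFP 1 or AAV-VEGFC 3 was left out. For AAV-GFP against BDL the list count ran from 1 to 42 with 1 library left out, beside 386 to 2945 of all genes. For AAV-VEGFC against BDL it ran from 5 to 34, beside 586 to 2284 of all genes. The counts of all genes swung in these fits too, though by a smaller factor than those of the list. For AAV-GFP against BDL the list count was 42 without AAV-VEGFC 1, 1 without BDL 1, BDL 2 or AAV-GFP 2, 2 without BDL 3, 3 without AAV-GFP 3 and 4 without sham 1 or sham 3. For AAV-VEGFC against BDL it was 34 without AAV-VEGFC 2, 5 without any 1 of the BDL libraries, 8 without sham 1 or sham 3 and 9 without sham 2 or AAV-GFP 2.

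Metallothioneins, which bind zinc and copper and scavenge radicals, stood out by size. Mt1a was 11.3, 7.46 and 8.11 CPM in AAV-VEGFC libraries and 9.14, 7.50 and 6.55 CPM in AAV-GFP libraries. It was 4.25, 5.48 and 6.03 CPM in BDL libraries, against 2.83, 3.55 and 2.61 CPM in sham libraries. Every ligated library lay above every sham library, and Mt1a rose in all ligated rats against sham (1.25 ± 0.18, adjusted p = 0.002), a call kept under each of the 20 alternatives. In BDL alone against sham the difference was 0.81 ± 0.21 and did not pass (adjusted p = 0.365), but passed under 3 of 21 alternatives, with DESeq2 (adjusted p = 0.0472), with weighted limma voom (adjusted p = 0.0292) and without the 3 libraries (0.95, adjusted p = 0.0375). In AAV-VEGFC against BDL Mt1a rose (0.77, adjusted p = 0.0386), a call kept under 12 of 21 alternatives. AAV-GFP against BDL gave 0.56 and did not pass (adjusted p = 0.15), but passed under 2 of 21 alternatives. Metallothionein genes are close copies of each other, so reads may be split between them with error. Of the 3 tested members of the list, 2 rose in all ligated rats against sham, where 3.02% of all genes were called higher.

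Among oxidant sources 2 of 15 tested genes rose and 0 fell in all ligated rats against sham, against 3.02% of all genes called higher and 7% lower. Xdh, the xanthine dehydrogenase that can turn into a superoxide-making oxidase, was 12.9, 14.0 and 12.6 CPM in AAV-VEGFC libraries and 11.95, 11.1 and 13.6 CPM in AAV-GFP libraries. It was 8.82, 12.2 and 9.76 CPM in BDL libraries, against 7.04, 6.20 and 7.12 CPM in sham libraries. No ligated library overlapped the sham libraries, and Xdh rose by 0.80 ± 0.11 (adjusted p = 0.00163) in all ligated rats against sham, under each of the 20 alternatives. In BDL alone it was 0.60 ± 0.13 and did not pass (adjusted p = 0.236), but passed with DESeq2 (adjusted p = 0.0104) and with weighted limma voom (adjusted p = 0.0385). Endothelium markers, summed to 270 to 491 CPM in ligated libraries and 235 to 273 CPM in sham libraries, moved the same way, and their part in the Xdh result was not tested.

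Among NADPH and detoxification genes 5 of 22 rose and 0 fell in all ligated rats against sham, against 3.02% of all genes called higher and 7% lower. An unadjusted p under 0.05 was found for 8 of 22, against 27.6% of all genes. Akr1a1, an aldehyde reductase, was 446, 449 and 441 CPM in AAV-VEGFC libraries, 442, 484 and 475 CPM in AAV-GFP libraries, 393, 387.1 and 391.5 CPM in BDL libraries, and 353, 373 and 360.1 CPM in sham libraries. The steps did not overlap between BDL and sham or between either vector group and BDL, and Akr1a1 rose in AAV-GFP against BDL (0.26 ± 0.06, adjusted p = 0.0256) and in all ligated rats against sham (0.26 ± 0.05, adjusted p = 0.00755). AAV-VEGFC against BDL did not pass (0.19 ± 0.06, adjusted p = 0.0635), but passed without AAV-VEGFC 1 (adjusted p = 0.0231). The AAV-GFP call was lost with the replicate block and without sham 1, sham 3, AAV-GFP 2, AAV-GFP 3 or any 1 BDL library (adjusted p up to 0.111), and the call of all ligated rats without sham 1 (adjusted p = 0.0801) or sham 3 (adjusted p = 0.0602). Akr7a2, another aldehyde reductase with close paralogs, rose in all ligated rats against sham (0.44 ± 0.08, adjusted p = 0.00795), but not without sham 1 (adjusted p = 0.0644). BDL alone against sham gave 0.18 for Akr7a2 (adjusted p = 0.934). It rose in AAV-GFP against BDL (0.40, adjusted p = 0.0394), a call kept under 12 of 21 alternatives. It also rose in AAV-VEGFC against BDL (0.37, adjusted p = 0.0385), a call kept under 9 of 21. Of the 28 tested glutathione genes 26 had a positive difference in all ligated rats against sham, with a median of 0.24. There 0 were called higher and 1 lower, 3.57%, against 3.02% and 7% of all genes. The called gene, Abcc1, an exporter of glutathione conjugates, fell (-0.57 ± 0.09, adjusted p = 0.00356). It was 13.04, 17.9 and 13.3 CPM in AAV-VEGFC libraries and 15.8, 16.9 and 17.1 CPM in AAV-GFP libraries, against 30.5, 26.6 and 30.7 CPM in BDL libraries and 29.5, 27.9 and 28.3 CPM in sham libraries. The vector groups held the low values: AAV-VEGFC against BDL gave -0.99 ± 0.12 (adjusted p = 0.00058), AAV-GFP against BDL -0.82 ± 0.12 (adjusted p = 0.00183), and BDL against sham 0.03 ± 0.12 (adjusted p = 0.9999).

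In the thioredoxin and peroxiredoxin list 4 of 17 genes rose and 0 fell in AAV-VEGFC against BDL, against 2.91% of all genes called higher and 7.02% lower. In AAV-GFP against BDL 1 of 17 rose and 0 fell, against 0.988% of all genes called higher and 5.2% lower. In AAV-VEGFC against AAV-GFP 0 of 17 passed, against 0.00778% of all genes, with 1 at an unadjusted p under 0.05, against 4.37%. Msrb2, a mitochondrial repair enzyme for oxidised methionine, was 27.4, 22.2 and 24.5 CPM in AAV-VEGFC libraries, 22.3, 24.6 and 23.5 CPM in AAV-GFP libraries and 16.3, 16.7 and 19.5 CPM in BDL libraries. It rose in AAV-VEGFC (0.50 ± 0.10, adjusted p = 0.00823) and in AAV-GFP (0.42 ± 0.10, adjusted p = 0.0247) against BDL, and sham libraries held 19.8, 20.1 and 20.2 CPM. The AAV-GFP call was lost with the replicate block and without BDL 1, BDL 2, AAV-GFP 2 or AAV-GFP 3 (adjusted p up to 0.114), and the AAV-VEGFC call in the fit of its groups alone (adjusted p = 0.0968). Among the 12 tested genes of superoxide and peroxide removal, 1 rose and 0 fell in AAV-VEGFC against BDL: Park7, the redox-sensing protein DJ-1 (0.45 ± 0.10, adjusted p = 0.019). Without AAV-VEGFC 1 its difference was 0.30 and passed (adjusted p = 0.00585), while the call was lost without BDL 1, BDL 2 or BDL 3 (adjusted p up to 0.0724) and in the fit of these groups alone (adjusted p = 0.129). AAV-GFP against BDL gave 0.31 ± 0.10 without overlap and did not pass (adjusted p = 0.106), but passed under 5 of 21 alternatives. In the haem and iron list Lrp1, a large endocytic receptor that also takes up haemopexin-bound haem, fell in AAV-VEGFC against BDL (-0.67 ± 0.12, adjusted p = 0.00491) and in AAV-GFP against BDL (-0.54 ± 0.12, adjusted p = 0.0211). The AAV-GFP call was lost with the replicate block and without AAV-GFP 2, AAV-GFP 3 or any 1 BDL library (adjusted p up to 0.0965). Hp, the haptoglobin that binds free haemoglobin, was 0.782, 0.718 and 0.923 CPM in AAV-VEGFC libraries and 0.417, 0.686 and 1.13 CPM in AAV-GFP libraries, against 1.97, 2.21 and 2.11 CPM in BDL libraries. It fell in AAV-VEGFC against BDL (-1.37 ± 0.32, adjusted p = 0.0225) and in AAV-GFP against BDL (-1.49 ± 0.33, adjusted p = 0.0205), while sham libraries held 1.45, 1.14 and 1.08 CPM. Both calls were lost without any 1 of the BDL libraries, and that of AAV-GFP also without AAV-GFP 2 (adjusted p up to 0.0693 for AAV-VEGFC and 0.0857 for AAV-GFP).

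**Figure D4:**
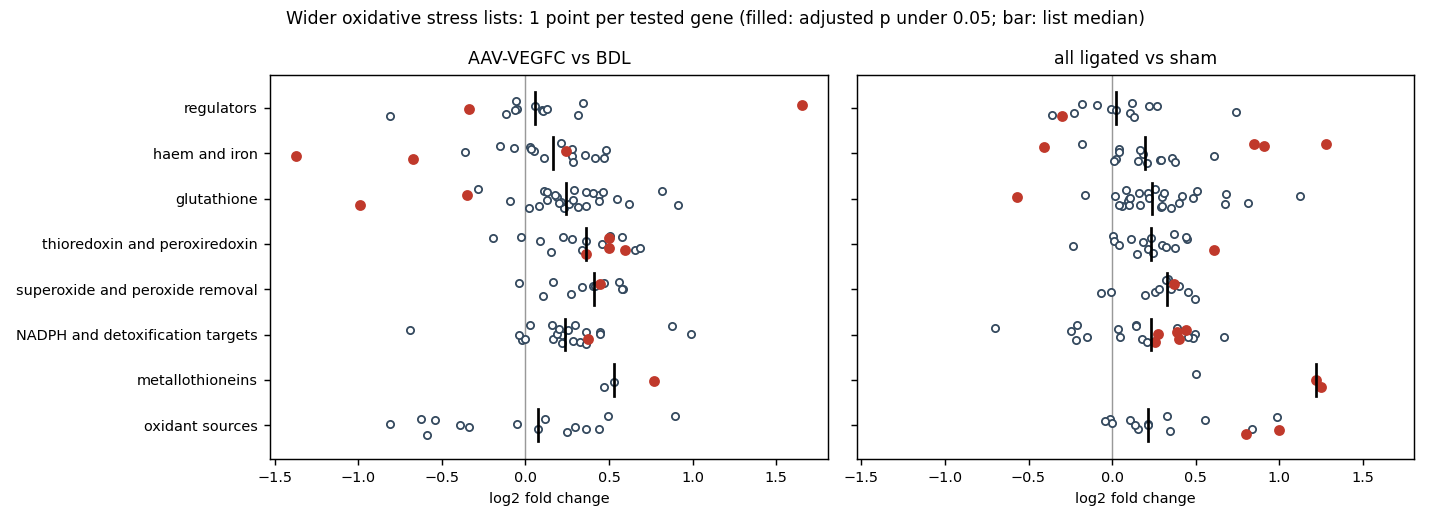
Log2 fold change (x axis) of each tested gene of the 8 wider lists in AAV-VEGFC against BDL (left) and all ligated rats against sham (right), with list medians as bars and filled points for genes that passed. In the left panel the filled points run from Hp (-1.37) to Maff (1.66), and in the right panel both filled metallothioneins lie above 1.2, Mt1a at 1.25.

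The genes most like Hmox1 and Cat over the 12 libraries were found by the root mean square difference between profiles scaled to mean 0 and SD 1, among 11224 genes. For Hmox1 they were Fancl (0.22 SD), Sgsm2 (0.311 SD), Glud1 (0.362 SD) and Samd14 (0.426 SD). Glud1, the glutamate dehydrogenase of mitochondria, shared with Hmox1 the high values of AAV-VEGFC 1 (687 CPM) and AAV-GFP 1 (644 CPM) beside 407 to 505 CPM in the other libraries. For Cat they were Rrp7a (0.247 SD), Ptms (0.294 SD), Cops7a (0.305 SD) and Eif4h (0.324 SD), of which Rrp7a, Cops7a and Eif4h were higher in each of the 6 vector libraries than in each of the 6 others. Ptms overlapped, with 584.8 CPM in AAV-VEGFC 2 and 588.6 CPM in BDL 3. These distances describe 12 libraries and carry no test.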

How the data were processed

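RNA was sequenced from 12 rat brain samples, 3 in each of 4 groups, from 200 ng of total RNA per the labels' protocols. The deposited values were whole-number read counts for each gene, not normalized. Per the submitters' processing notes, FastQC, Trimmomatic 0.36, HISAT2, featureCounts and the rn6 build were used, and the sources used here do not give their settings, the annotation or the strand setting. Overlapping and antisense genes therefore cannot be told apart. The table held 17337 rows with 17335 distinct gene names, and the 11 single-library files equalled its columns.

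Genes were kept with edgeR's filterByExpr (12850 genes), scaled by TMM and tested with edgeR 4.0.16 (quasi-likelihood, R 4.3.3) in one fit of all libraries. P-values were adjusted by Benjamini-Hochberg over all tested genes. The SE came from the fold change and its F statistic, and CPM from TMM-scaled library sizes. The alternatives were DESeq2 1.42.0, limma 3.58.1 voom with sample quality weights, other scalings, filters and thresholds, a replicate block and leaving out libraries. The fits were tested on simulated data. No 2 libraries of a group agreed within sampling noise (chi-square per degree of freedom 11.6 to 227 over 12 pairs).

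The members and the wider lists were chosen with earlier results of these data known, as were the libraries left out together. All 10 members are described. From the wider lists the 6 called genes with the smallest p in a comparison are named (all if fewer), with Nfe2l2, Keap1 and Bach1, and for the likeness of profiles the 4 genes nearest to Hmox1 and to each called member, among those with a mean of at least 1 CPM. Hp is also given in AAV-VEGFC against BDL, and Akr7a2 and Mt1a in further comparisons, all chosen after their values were seen. Figures were drawn with matplotlib 3.10.9.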

Additional observations from a re-analysis of the deposited data

How the results depend on the processing

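Of 1040 single-gene values of the 10 genes under 21 alternatives, 996 kept their side of the threshold, 34 newly passed and 10 no longer passed. No called value reversed (0), but 55 of the 996 changed sign with no call under either setting. Of 1456 values of the named genes of the wider lists 1342 kept their side of the threshold, 79 no longer passed and 35 newly passed. Again 0 called values reversed, and 39 of the 1342 changed sign with no call. The edgeR counts of genes called were 14 for BDL against sham, 795 for AAV-GFP against BDL, 1 for AAV-VEGFC against AAV-GFP, 1276 for AAV-VEGFC against BDL and 1287 for all ligated against sham. In that order, DESeq2 gave 108, 1485, 10, 2362 and 2194, and limma voom with sample quality weights, which changes both the test and the weight of each library, gave 347, 4687, 1, 2488 and 4506. A fit of the compared groups alone gave 332, 2023, 0 and 330, and could not be made for all ligated rats, which use every library. An adjusted p under 0.1 gave 23, 1302, 1, 2353 and 2157. Without sham 2, AAV-GFP 1 and AAV-VEGFC 1 the counts were 209, 3646, 1193, 3123 and 3387. With 1 library left out they ran from 12 to 74, 386 to 2945, 0 to 22, 586 to 2284 and 378 to 3199. Of the 10 genes, AAV-GFP against BDL called 1, but 4 with voom, 2 in the compared groups alone, 4 without the 3 libraries and 0 to 2 with 1 left out. AAV-VEGFC against BDL called 0, but 3 with DESeq2, 3 with voom, 2 at 0.1, 3 without the 3 libraries and 0 to 2 with 1 left out. All ligated against sham called 1, but 3 with DESeq2, 3 with voom, 2 at 0.1, 3 without the 3 libraries and 0 to 3 with 1 left out. The cause was not tested.

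Replicate numbers did not pair the samples: over 18 same-numbered pairs the correlation of deviations ran from -0.128 to 0.0686, and 2 of 12 libraries correlated best with their own number. With the replicate number as a block the counts were 12, 550, 0, 905 and 927, and 0 of the 10 genes passed in AAV-GFP against BDL, where Cat gave 0.30 (adjusted p = 0.0597). Depth limits Hmox1 most, with 220 counts in its lowest library.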
